A study of Rattus norvegicus with 6 samples.

Results

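The 44 genes described here encode proteins of the cytosolic ribosome and a few of their close relatives, measured in stromal cells grown from blood and from bone marrow of the same rats. Of these genes 41 were bright enough to be tested and 0 passed the test for a difference, where 2.03% of all genes tested did, so the count in itself is no result about them. They were chosen by symbol: every probe set with exactly 1 gene symbol in the platform annotation was taken where that symbol was Rpl or Rps followed by a digit, or Rplp0, Rplp1, Rplp2 or Rpsa, leaving out the S6 kinase genes and pseudogenes. The rule found 50 probe sets of 15866 that are not array controls, for 14 genes of the small subunit, 29 of the large subunit and 1 of the stalk, among 10412 genes with a single symbol. A further 34 probe sets carry a ribosomal protein symbol together with other symbols, such as pseudogenes and like-named copies. The rule leaves those out. Rplp1, Rplp2, Rps19, Rps4x, Rps27a, Rpl22l1, Rps27, Rpl39l, Rpl36a and Rpl36al have no probe set under the rule and are not analysed here by name.

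A cytosolic ribosome has a small subunit, which reads the messenger RNA, and a large subunit, which joins amino acids and holds the tunnel through which the new chain leaves. Each subunit is built from ribosomal RNA and 1 copy of most ribosomal proteins, so cells keep the output of these many genes in step, and their messenger RNAs rank among the most abundant of growing cells. Most of these messenger RNAs begin with a stretch of C and U, the 5' terminal oligopyrimidine or TOP motif, through which the growth-sensing kinase mTOR governs how well they are translated.

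The study grew mesenchymal stromal cells, adherent fibroblast-like cells, from the mononuclear cells of peripheral blood and of bone marrow of 3 rats carrying a GFP transgene, named S4, S5 and S6. Each rat gave 1 blood and 1 marrow culture, kept alike, and 10 µg of RNA from each at passage 2 was labelled with oligo-dT priming and put on 1 Affymetrix RAE230A array. The GFP transgene is shared by all 6 cultures; the sources used here give neither its promoter nor the strain, sex and age of the rats. The number of arrays, 3 a group, limits the precision of every value.

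Array medians lay between 8.12 and 8.22 on the deposited scale, which is read as log2 from its values because the base is not stated. The 3' minus 5' signals of the beta-actin and GAPDH controls were 0.21 to 0.38. Of 12 stromal genes all were bright enough to be tested, with Vim, or vimentin, at 12.72 to 12.95 and Col1a1 at 12.32 to 13.02. Of them 1, Eng, was called higher in blood cultures in the limma fit described with the differences (adjusted p = 0.0380). Blood minus marrow differences of the 12 ran from -1.93 for Lum to 1.62 for Eng, with 7 above 0. Dcn stood at 10.55, 12.89 and 10.44 in the blood cultures and at 12.57, 12.83 and 12.63 in marrow cultures of rats S4, S5 and S6. Thy1 lay at 7.02 to 9.42 in the blood cultures and at 7.68 to 9.84 in marrow cultures. Of 14 leukocyte and macrophage genes 9 were tested. The mean signal over all 14 was 9.17 to 9.54 in the blood cultures and 8.61 to 9.46 in marrow cultures. The 9 tested genes lay above the median of all values, 8.18, in every culture of both sources. Their lowest value was 8.49, for Laptm5 in the marrow culture of rat S4. Single genes of the list differed widely in signal. Over the 6 arrays the tested Lyz2 lay at 10.71 to 12.51 and the untested Coro1a at 6.20 to 6.67. Lymphocyte and endothelial genes were mostly dim, with 2 of 7 and 0 of 5 bright enough to be tested, and Hbb, a globin gene of red cells, lay at 7.90 to 8.06. In such bulk samples, fewer cells of a type and less RNA per cell cannot be told apart.

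Most of these genes with a window at hand have a stretch of C and T at or near the annotated start, the letters of the TOP motif. A run that begins with a C at the annotated first base was found in fewer, 11 of 39. The following windows, from RefSeq on build GRCr8, run 5' to 3' on the strand of the gene from 30 bases before the annotated start of transcription to 20 bases after it. They are shown because they let a reader see the pyrimidine stretch in genes described further on, beside 4 that lack one. Capitals mark the longest run of C and T of at least 7 bases that touches the 10 bases before or the 10 after the start.

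Rplp0 (chr12:46718371-46718420, minus strand): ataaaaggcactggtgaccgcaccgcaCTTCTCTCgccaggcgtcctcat
Rpl12 (chr3:36661910-36661959, plus strand): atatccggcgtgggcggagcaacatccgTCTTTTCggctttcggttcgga
Rpl37a (chr9:81748061-81748110, plus strand): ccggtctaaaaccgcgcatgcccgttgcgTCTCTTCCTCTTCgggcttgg
Rpl19 (chr10:83519034-83519083, plus strand): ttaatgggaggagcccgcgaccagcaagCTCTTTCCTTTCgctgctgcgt
Rps23 (chr2:23814487-23814536, plus strand): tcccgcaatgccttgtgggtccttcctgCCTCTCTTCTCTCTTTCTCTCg
Rpl13a (chr1:104748894-104748943, minus strand): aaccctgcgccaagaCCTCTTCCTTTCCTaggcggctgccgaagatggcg
Rpl24 (chr11:58128386-58128435, minus strand): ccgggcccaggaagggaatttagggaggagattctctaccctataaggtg
Rpl11 (chr5:153560783-153560832, minus strand): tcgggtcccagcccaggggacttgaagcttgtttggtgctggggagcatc
Rps27l (chr8:76443628-76443677, plus strand): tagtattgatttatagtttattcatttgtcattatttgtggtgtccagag
Rpl7l1 (chr9:21695688-21695737, plus strand): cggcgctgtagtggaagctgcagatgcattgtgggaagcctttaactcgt

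In Rplp0, Rpl12, Rpl37a, Rpl19 and Rps23 the stretch spans the annotated start, while in Rpl13a it ends next to it. The annotated start can be off by some bases, so where the stretch begins relative to the first transcribed base is approximate. RefSeq promoter windows were at hand for 39 of the 44 genes. Such a stretch was found in 28 of the 39, or 71.8%, against 19.1% of 27457 promoters of all genes and 17.8% of 5142 promoters of genes tested here. The nuclear genes of the mitochondrial ribosome, which build a separate ribosome, had it in 14 of 57, or 24.6%. A stricter form, a C at the annotated first base followed by at least 4 bases of C or T, was present in 11 of 39 (28.2%), against 2.63% of all promoters and 3.51% of those of the mitochondrial ribosome. The length of 7, the reach of 10 bases, the C-start rule and the strings in the next paragraph were chosen after windows of these genes had been seen. With lengths of 5 to 9 bases or reaches of 5 to 20 the share of these genes ran from 56.4% to 84.6%, where all promoters had 9.24% and 43.2%. These are counts of letters in windows and no test was made on them.

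Other letters were searched over the whole window of 300 bases, 250 before and 50 after the start, on both strands. The site of ETS factors such as GABP, searched as CCGGAAG, was in 9 of 39 windows (23.1%), against 9.22% of all promoters, 19.5% of those of tested genes and 33.3% of those of the mitochondrial ribosome. The site of YY1, searched as AAGATGG, was in 8 of 39 (20.5%), against 7.30%, 9.16% and 26.3%. Neither string was thus commoner here than in the genes of the mitochondrial ribosome. The letters of the latter can contain a start codon, and the 2 searched strings do not contain each other. The genes lie on 15 chromosomes, with 7 of them on chromosome 1. The 28 genes with the stretch had a median difference between blood and marrow cultures of 0.03 and the 11 without it one of 0.00, on the log2 scale.

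Blood and marrow cultures alike gave very bright signals for most of these genes. Of the 50 probe sets, 41 had a mean signal of at least 11, a level reached by 5.16% of all probe sets and set after the values were seen, and 30 were in the top 1% by mean signal. On each array the median of the 41 lay between 12.53 and 12.62, and the highest of them was at 13.09 to 13.20, where the highest value of the table was 13.31. The other 9 probe sets had means from 4.97 to 9.78. The signal of a probe set depends on its probes as well as on its transcript, so signals of different genes are not ranked here as amounts of RNA.

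**Figure D1:**
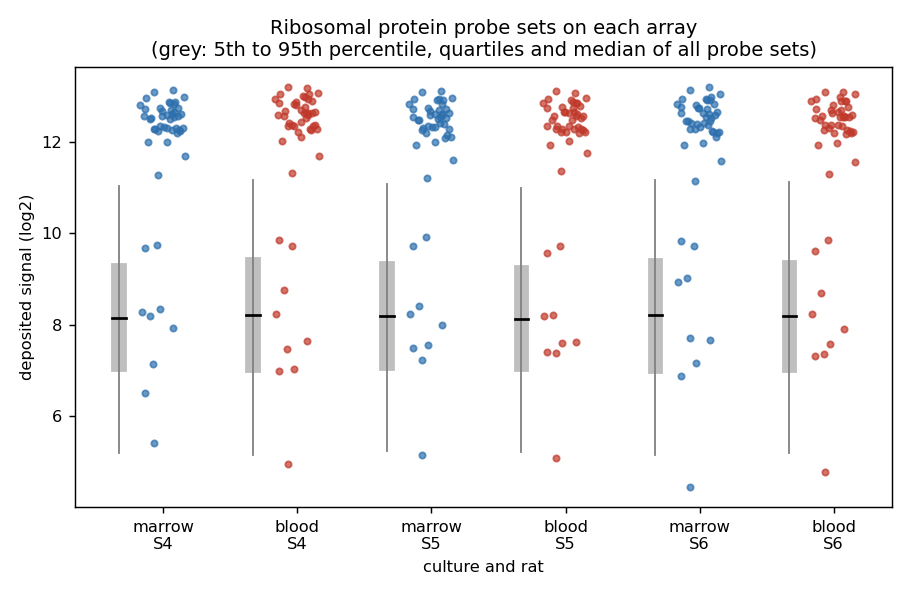
Deposited log2 signal of the 50 ribosomal protein probe sets (points, 1 each) on the 6 arrays, marrow cultures in blue and blood cultures in red, beside the 5th to 95th percentile (line), quartiles (box) and median (bar) of all probe sets on that array. On every array 41 points sit above 11 and the other 9 sit below 10.

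The main comparison asked whether blood and marrow cultures of the same rat differed in these genes. Probe sets were tested with limma, a linear model with a moderated variance, with the rat as a term, and called at a Benjamini-Hochberg adjusted p under 0.05 over 8135 probe sets whose signal exceeded the median of all values, 8.18, on at least 3 of the 6 arrays. Of the 50 members, 45 probe sets of 41 genes were tested and 0 were called. The lowest adjusted p of the members in the limma fit was 0.620. Among all tested probe sets 2.15% were called, and 0.611% of the 819 with a mean signal of at least 11. A count of 0 called among 45 is thus close to the background and is no result about these genes in itself. At an unadjusted p under 0.05 the members' count was also 0. There it was 1148 of all 8135 tested probe sets and 90 of the 819. The unadjusted count of 0 lies below both background shares, and no test was made on it.

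The median difference of the 50 probe sets, blood minus marrow, was 0.03, and that of the 44 genes by their brightest probe set was 0.03 as well. The median over all tested probe sets was -0.01. By rat, the median of the 50 was 0.09 in S4, 0.00 in S5 and -0.02 in S6, against 0.10, -0.08 and -0.04 over all tested probe sets. The members thus stood slightly higher in blood cultures in rat S4, where 40 of 50 were above 0, and so did the whole array. In rat S5 as many were above as below 0, 24 each, and in rat S6 20 were above and 26 below. In rat S4, leukocyte and macrophage genes also stood higher in the blood culture, with a median of 1.31 over the 9 tested, against 0.14 and 0.05 in S5 and S6. Over the 3 rats the leukocyte median was 0.47, and without rat S4 it was 0.105, where that of the 50 ribosomal probe sets was -0.005. The part of these markers in the small shift of the ribosomal genes was not tested.

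What the intervals allow is narrow. Over the 41 bright probe sets the differences ran from -0.11 to 0.13, and their 95% intervals in the limma fit reached from -0.40 to 0.41. All 41 intervals excluded a 1.5-fold difference, which is 0.585 on the log2 scale, in either direction, on the deposited scale and if its base is 2. The fit draws the variance of each probe set towards that of all probe sets, and the SE of these 41, 0.11 to 0.13, is set largely by that common value. The spread of the differences between the 3 rats was smaller for most of them, with a median SD of 0.07. That is an SD of single rats, and the SE of their mean would be smaller still.

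**Figure D2:**
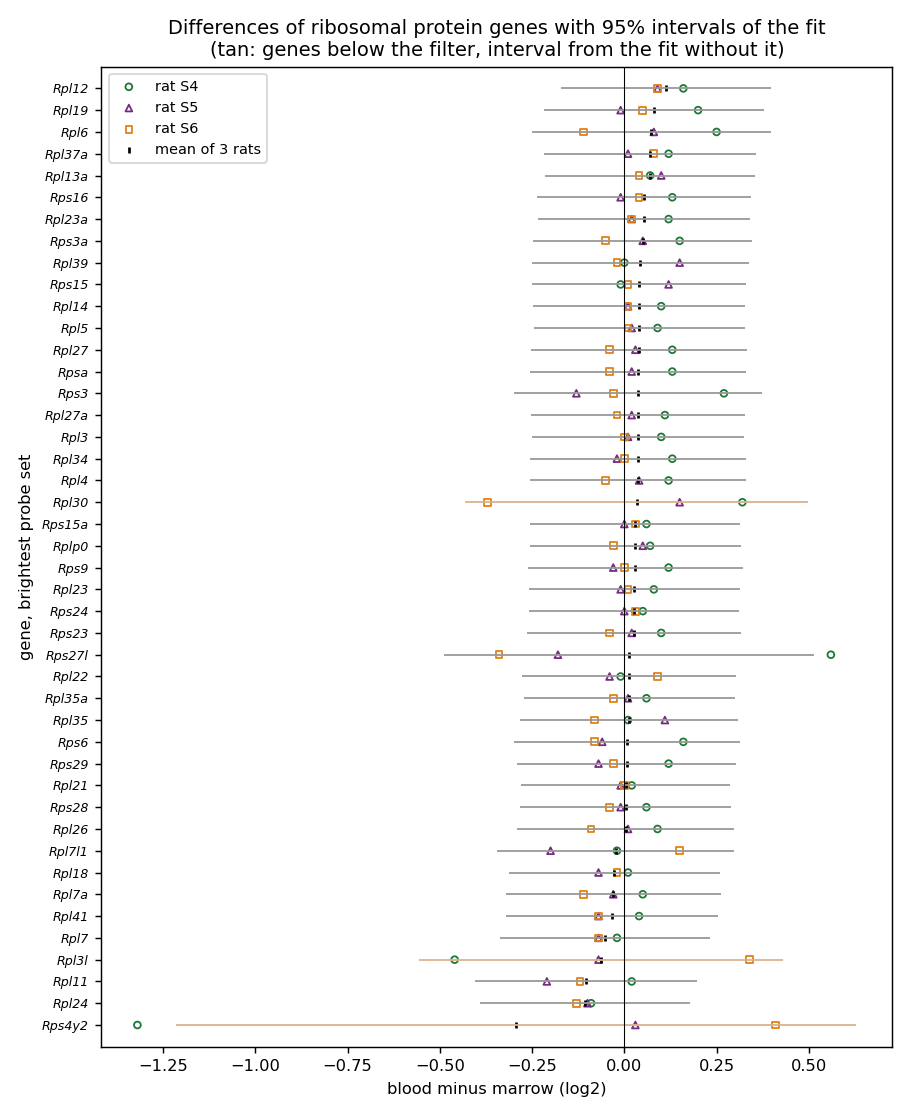
Blood minus marrow log2 difference of the 44 genes by their brightest probe set, with 1 open symbol for each rat, a black tick for the mean and a horizontal line for the 95% interval of the limma fit, tan for the 3 genes below the filter, from the fit without it. Nearly all means lie between -0.11 and 0.11, every interval spans 0, and Rps27l and Rps4y2 show the widest spread between rats.

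Values of the 41 bright probe sets stayed close together across all 6 arrays. The range from the lowest to the highest array had a median of 0.13 and went from 0.08 for Rplp0 to 0.30 for Rpl11. To compare with genes of like signal, probe sets with a mean of at least 12 were set side by side: 38 members and 166 others that carry no ribosomal protein symbol. The level of 12 was set after the values were seen. The median range over 6 arrays was 0.13 for the members and 0.35 for the others, the SD of the differences was 0.05 and 0.21, and the differences ran from -0.11 to 0.11 and from -0.80 to 0.71. This is a description of 2 sets of probe sets in the same arrays and no test was made.

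Some other genes were this bright in 1 group and differed widely. Of 273 probe sets with a mean of at least 12 in either group, 10 differed by at least 2-fold. Differences of the 273 ran from -2.65 to 1.53, and 0 of the 10 were among the 38 members found at that level. A probe set can enter that count through 1 group alone. Of the 166 others with a mean of at least 12 over all 6 arrays, 0 differed by at least 2-fold. Whether signals near the top understate differences was not tested.

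**Figure D3:**
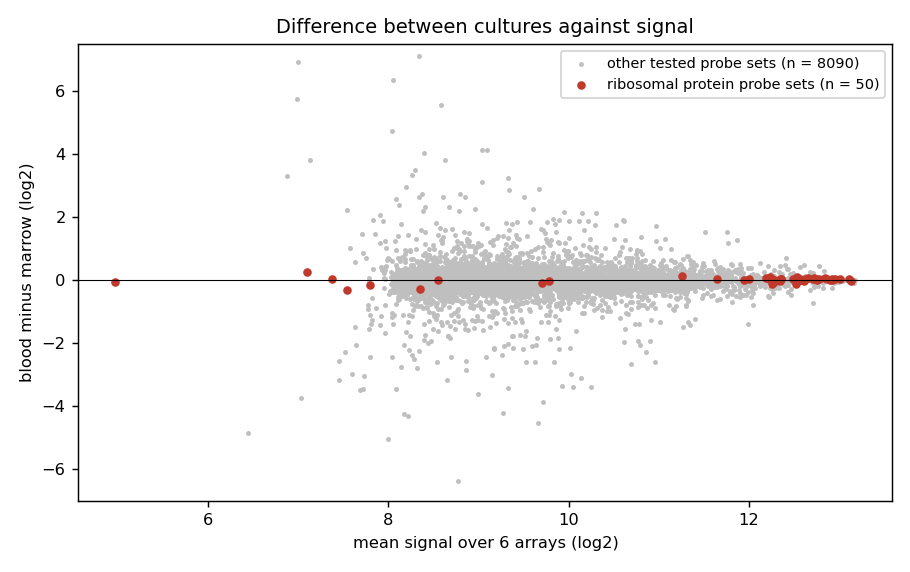
Blood minus marrow log2 difference against mean log2 signal over 6 arrays, for the 50 ribosomal protein probe sets (red) and the other tested probe sets (grey). The red points lie along 0, and the 41 with a mean of at least 11 stay between -0.11 and 0.13.

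The stalk and the proteins at its base, where elongation factors bind, were represented by Rplp0, which anchors the stalk, and Rpl12, its neighbour. Rplp0 stood at 12.76, 12.74 and 12.68 in the blood cultures and at 12.69, 12.69 and 12.71 in marrow cultures of rats S4, S5 and S6. The groups overlap, and the difference was 0.03 ± 0.12 (SE, n = 3 rats, limma adjusted p = 0.957). Rpl12 stood at 12.67, 12.56 and 12.55 in the blood cultures and at 12.51, 12.47 and 12.46 in marrow cultures. All 3 blood cultures were above all 3 marrow cultures, by a difference of 0.11 ± 0.11 that did not pass (limma adjusted p = 0.783) and is the largest positive one among the 44 genes by brightest probe set.

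Groups that do not overlap were found for 4 of the 45 tested probe sets, of Rpl12, Rpl24, Rpl37a and Rpsa, against 18.5% of all tested probe sets. At a mean signal of at least 11 it was 4 of 41, against 19.3%. The members' share lies below the background, and the 4 are no sign of a difference. With arrays shifted to a common median it was 7 of 45, against 19.7% of all tested probe sets. With 1 rat left out, where 2 arrays stand against 2, it was 13 of 45 without S4, 10 without S5 and 18 without S6. Those are 28.9%, 22.2% and 40.0% of the members, against 34.9%, 46.0% and 39.1% of all tested probe sets, so without rat S6 the members' share lay next to the background. Rpl24, a protein of the large subunit that takes part in a bridge to the small subunit, stood at 12.22, 12.21 and 12.19 in the blood cultures and at 12.31, 12.31 and 12.32 in marrow cultures. It was lower in the blood culture of each rat by 0.09 to 0.13, which gives a difference of -0.11 ± 0.11 (limma adjusted p = 0.797). Rpl37a, a small zinc-binding protein of the large subunit, stood at 12.92, 12.84 and 12.89 in the blood cultures and at 12.80, 12.83 and 12.81 in marrow cultures. Its difference was 0.07 ± 0.12 (limma adjusted p = 0.885).

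Rpl5 and Rpl11 bind 5S ribosomal RNA, and outside the ribosome the particle they form restrains Mdm2, which raises p53. Rpl5 stood at 12.68, 12.62 and 12.64 in the blood cultures and at 12.59, 12.60 and 12.63 in marrow cultures, a difference of 0.04 ± 0.11 (limma adjusted p = 0.940). Rpl11 stood at 12.57, 12.33 and 12.51 in the blood cultures and at 12.55, 12.54 and 12.63 in marrow cultures. The blood culture of rat S5 was the lowest of the 6, the groups overlap, and the difference was -0.10 ± 0.12 (limma adjusted p = 0.819). A control probe set for 5S ribosomal RNA, which the oligo-dT primed labelling is not made to copy, read at most 8.05 in the blood cultures and 8.11, 8.68 and 8.15 in those of marrow.

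The tunnel for the new chain and its mouth are lined by proteins of the large subunit, of which Rpl4, Rpl19, Rpl23a, Rpl26, Rpl35 and Rpl39 were measured. Their differences ran from 0.00 for Rpl26 to 0.08 for Rpl19, all 6 at or just above 0, and none passed. In rats S4, S5 and S6 the medians of the 6 were 0.105, 0.03 and -0.035, with 5, 5 and 2 above 0. Rpl39, a very short protein inside the tunnel, stood at 11.69, 11.75 and 11.56 in the blood cultures and at 11.69, 11.60 and 11.58 in marrow cultures. These values overlap, with a difference of 0.04 ± 0.12 (limma adjusted p = 0.934). Rpl23a, at the mouth of the tunnel, was higher in the blood culture of each rat, by 0.12, 0.02 and 0.02, between 12.21 and 12.36 in the blood cultures and 12.19 and 12.27 in marrow cultures.

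Other large subunit proteins were as close. Rpl3, which lies near the site of peptide bond formation, stood at 13.07, 12.96 and 13.05 in the blood cultures and 12.97, 12.95 and 13.05 in marrow cultures, so that rat S6 had the same value in both. Rpl7a, the brightest member by mean signal, stood at 13.18, 13.07 and 13.09 in the blood cultures and 13.13, 13.10 and 13.20 in marrow cultures, with a difference of -0.03 ± 0.12 (limma adjusted p = 0.958). Rpl13a, a protein often used to normalise expression measurements, was at 12.25, 12.18 and 12.25 in the blood cultures and 12.18, 12.08 and 12.21 in marrow cultures. It was higher in each blood culture, by 0.07 ± 0.11, which did not pass (limma adjusted p = 0.884).

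Rpl22 was at 12.63, 12.55 and 12.55 in the blood cultures and 12.64, 12.59 and 12.46 in marrow cultures. It differed by 0.01 ± 0.12, and the sign changed with the scaling, to -0.02 under quantile normalization. Rpl14 by its bright probe set differed by 0.04 ± 0.12, with 12.10 in the blood culture of rat S4 and 11.96 to 12.01 in the other 5 cultures. Among the 27 large subunit genes outside the paralogs, 21 had a brightest probe set above 0 and the median was 0.04. Without rat S4 it was 11 of the 27. These genes share arrays, so the count does not stand for 27 independent observations.

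In the small subunit, all 12 genes outside the paralogs had differences between 0.00 and 0.05 by their brightest probe set. All 12 were above 0 as deposited, 11 under quantile normalization and 4 without rat S4, so the direction rests on that rat. Rps6, the protein that S6 kinases phosphorylate when mTOR is active, stood at 13.03, 12.85 and 12.89 in the blood cultures and at 12.87, 12.91 and 12.97 in marrow cultures. The blood culture was the higher in rat S4 alone, and the difference was 0.01 ± 0.12 (limma adjusted p = 0.991). Rps23, a protein of the decoding centre, stood at 13.19, 13.10 and 13.09 in the blood cultures and at 13.09, 13.08 and 13.13 in marrow cultures, a difference of 0.03 ± 0.12 (limma adjusted p = 0.966). Rps3, at the entry of the messenger RNA channel, had differences of 0.27 in S4, -0.13 in S5 and -0.03 in S6, the widest spread between rats among the bright small subunit genes.

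Rpsa, also known as the laminin receptor precursor, had 3 probe sets, all above 11 and all slightly higher in blood cultures on average. The brightest stood at 12.85, 12.73 and 12.72 in the blood cultures and at 12.72, 12.71 and 12.76 in marrow cultures, a difference of 0.04 ± 0.12 (limma adjusted p = 0.945). The next, which the array maker marks as shared by several transcripts, differed by 0.11 ± 0.11, with 0.09, 0.13 and 0.12 in the 3 rats (limma adjusted p = 0.783). The dimmest, marked as open to cross-hybridisation, stood at 11.32, 11.36 and 11.29 in the blood cultures and at 11.26, 11.20 and 11.13 in marrow cultures. Its difference of 0.13 ± 0.12 is the largest positive one among tested members and did not pass (limma adjusted p = 0.752).

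Diamond-Blackfan anaemia, an inherited failure of red cell production, arises from loss of a copy of certain ribosomal protein genes. The list used here holds 4 of them that were measured, Rpl5, Rpl11, Rpl35a and Rps24, and does not hold every gene linked to the disease. Their differences were 0.04, -0.10, 0.01 and 0.03, and none passed. Rps24 by its bright probe set was at 12.59, 12.61 and 12.54 in the blood cultures and 12.54, 12.61 and 12.51 in marrow cultures, within 0.05 in every rat.

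The paralogs and relatives showed lower signals and more spread between rats. Rps27l, a close copy of Rps27 that p53 can induce, stood at 8.76, 8.22 and 8.69 in the blood cultures and at 8.20, 8.40 and 9.03 in marrow cultures. The blood culture was the higher in rat S4, by 0.56, and the lower in S5 and S6, by 0.18 and 0.34. The mean of 0.01 ± 0.20 hides this spread (limma adjusted p = 0.991), and without rat S4 it was -0.26. Rpl7l1, a relative of Rpl7 with a part in ribosome assembly, had 2 probe sets that differed by -0.02 ± 0.13 and -0.07 ± 0.14. The brighter stood at 9.73, 9.71 and 9.86 in the blood cultures and at 9.75, 9.91 and 9.71 in marrow cultures, and the groups overlap in both.

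Rpl3l, a relative of Rpl3 that is made in heart and skeletal muscle, was the dimmest member, at 4.95, 5.09 and 4.79 in the blood cultures and 5.41, 5.16 and 4.45 in marrow cultures. All 6 values lie below the median of all values, and the gene was not tested. Rps4y2, a relative of Rps4x, stood at 7.03, 7.59 and 7.58 in the blood cultures and at 8.35, 7.56 and 7.17 in marrow cultures. The marrow culture of rat S4 is the only 1 of the 6 above the median of all values, and the difference of -0.29 comes from that rat, at -1.32 against 0.03 and 0.41 in the others. In the fit without a filter its SE was 0.36 (limma adjusted p = 0.874).

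Of 5 genes with several probe sets, 3 had a bright one and a dim one. The dim probe set of Rpl7 stood at 8.24, 8.18 and 8.24 in the blood cultures and at 8.27, 8.24 and 8.94 in marrow cultures. Its difference of -0.26 ± 0.17 has the smallest p of all members (limma adjusted p = 0.620) and comes from rat S6, at -0.70 against -0.03 and -0.06. The bright probe set of Rpl7 stood at 12.27, 12.31 and 12.16 in the blood cultures and at 12.29, 12.38 and 12.23 in marrow cultures, a difference of -0.05 ± 0.11 (limma adjusted p = 0.919). The dim probe sets of Rpl14 and Rps24 lay below the filter, with differences of 0.28 and -0.14, against 0.04 and 0.03 for the bright ones. Rpl30 had 1 probe set under the rule, a dim one, at 7.46, 7.38 and 7.35 in the blood cultures and 7.14, 7.23 and 7.72 in marrow cultures, which was not tested.

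**Figure D4:**
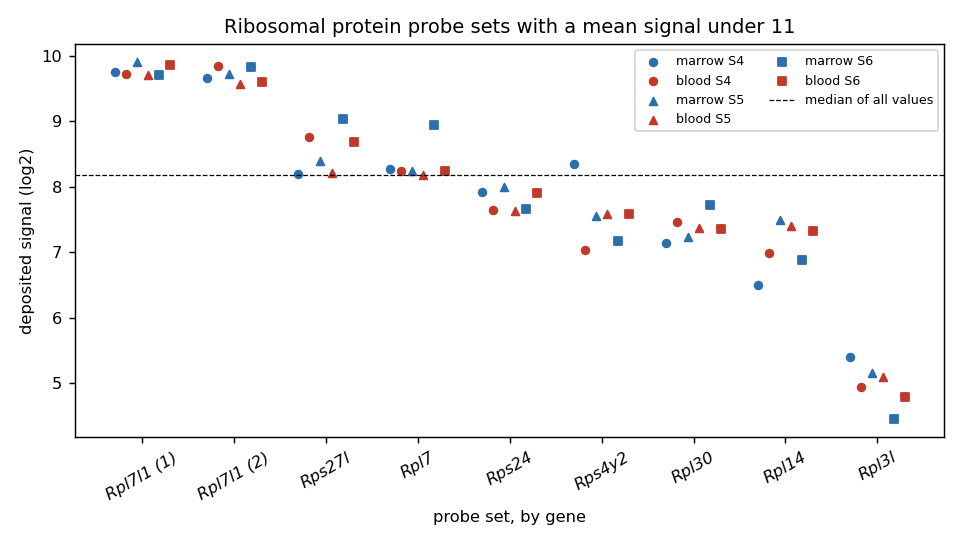
Deposited log2 signal of the 9 ribosomal protein probe sets with a mean under 11, by array, with blood cultures in red, marrow cultures in blue, a marker shape for each rat and a dashed line at the median of all values, 8.18. The dim probe set of Rpl7 stands apart in the marrow culture of rat S6 and Rps4y2 in that of rat S4.

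The 34 probe sets with a ribosomal protein symbol among several were alike. Their mean signals ran from 10.71 to 12.99, all 34 were tested, 0 were called, and their smallest adjusted p was 0.577 in the limma fit. The median difference was 0.035, with values from -0.03 to 0.19 and 29 of 34 above 0. By rat their medians were 0.09, 0.03 and 0.00 in S4, S5 and S6.

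Other genes of translation were described from lists, by the brightest tested probe set of each gene, where 2.03% of 6110 genes were called. Over the 7 lists below 0 were called. Of their 161 tested genes 8 had an unadjusted p under 0.05, against 835 of all 6110. The medians of the mitochondrial ribosome, initiation, assembly, TOP, elongation and mTOR lists lay within 0.04 of 0 and changed sign with 1 rat left out, while that of cell division genes stayed below 0. Rack1, a small subunit protein outside the naming rule, stood at 12.55, 12.42 and 12.46 in the blood cultures and 12.42, 12.41 and 12.47 in marrow cultures. Its difference was 0.04 ± 0.12 (limma adjusted p = 0.933). Of 8 elongation factor genes, 0 were called, and the median was 0.04 with values from -0.04 to 0.17, the last for Eef1e1. Of 38 initiation factor genes, 0 were called, with a median of -0.01. Eif3h, a subunit of the factor that gathers the small subunit for initiation, was the one with the smallest p, at 0.22 ± 0.12 (limma adjusted p = 0.516).

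The nuclear genes of the mitochondrial ribosome were more spread. Of 63 tested, 0 were called, with a median of -0.02 and values from -0.41 to 0.22. Mrps21 stood at 9.49, 9.50 and 9.73 in the blood cultures and at 9.80, 9.87 and 9.96 in marrow cultures, a difference of -0.30 ± 0.12 whose groups do not overlap (limma adjusted p = 0.329). Mrps18a differed by -0.38 ± 0.12 (limma adjusted p = 0.253).

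Genes outside the symbol rule whose messenger RNAs carry a TOP motif had a median of 0.03 over 10 tested. That is close to the median of the ribosomal proteins, and 0 were called. The list includes Rack1 and shares members with the elongation and initiation factors. Hnrnpa1, an RNA-binding protein of splicing, differed most, at 9.45, 9.72 and 9.28 in the blood cultures and 10.04, 10.26 and 9.70 in marrow cultures. It was lower in the blood culture of each rat, by 0.52 ± 0.12, without passing (limma adjusted p = 0.125).

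Of 32 genes of ribosome assembly, 0 were called, and the median was 0.02. Rrp9, which binds the U3 small nucleolar RNA, had the smallest p, at -0.40 ± 0.12 (limma adjusted p = 0.226), and Ubtf, a factor of ribosomal RNA transcription, differed by -0.25 ± 0.12 (limma adjusted p = 0.443). Of 13 genes of the mTOR and S6 kinase pathway, 0 were called. Myc, a transcription factor that drives ribosome assembly genes, stood at 10.69, 10.25 and 10.30 in the blood cultures and at 9.74, 9.55 and 10.11 in marrow cultures, a difference of 0.61 ± 0.18 (limma adjusted p = 0.201). Tsc1, part of a brake on mTOR, stood at 8.08, 8.14 and 8.09 in the blood cultures and 8.77, 8.55 and 8.53 in marrow cultures. Its difference was -0.51 ± 0.13 (limma adjusted p = 0.146), and its blood values lie below the median of all values.

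Cell division genes were mostly dim, with 7 of 21 tested. None of the 7 was called, and all 7 differed below 0, with a median of -0.17. Mcm2, a subunit of the replication helicase, differed most, by -0.51 ± 0.16 (limma adjusted p = 0.226). The median of the 41 tested ribosomal genes was 0.03 beside it.

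**Figure D5:**
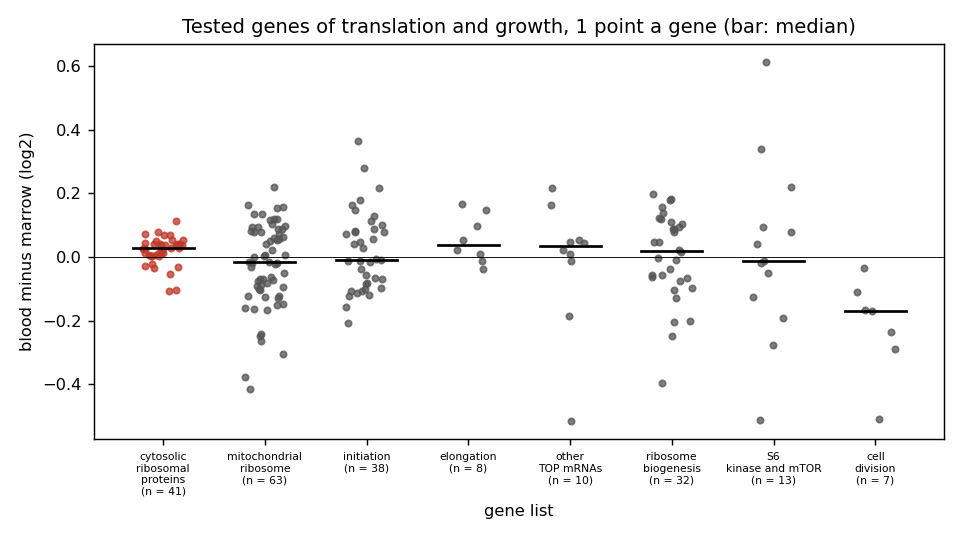
Blood minus marrow log2 difference of tested genes, 1 point a gene by its brightest tested probe set, for the cytosolic ribosomal proteins (red, 41 genes) and 7 lists of translation and growth (grey), with bars at the medians. The red points span -0.11 to 0.11, and the lists with more spread include the mitochondrial ribosome, from -0.41 to 0.22.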

How the data were processed

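The deposited log2 values, 1 column for each of 6 arrays, were analysed unchanged (pseudocount 0). Their base was read from the values, since no label states it. The submitters' processing notes name GCOS and no other tool. How probes were summarised and background and arrays adjusted is not given in the sources used here. Of 15923 probe sets, 57 controls were left out of the tests; 12789 had 1 symbol in the platform annotation, 312 several and 2822 none. Missing cells numbered 86 and exact zeros 94, none of them in a ribosomal probe set.

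Tests used limma 3.58.1 in R 4.3.3 (lmFit, eBayes, two-sided, rat as fixed term, Benjamini-Hochberg over 8135 probe sets), checked on simulated data. The series' text states the pairing by rat. Deviations of same-rat arrays correlated at -0.29, 0.30 and 0.33, and those of arrays of different rats at -0.47 to 0.42. These correlations do not set the same-rat pairs apart. Per the file headers, arrays of rat S6 ran on another fluidics station than those of S4 and S5, which the rat term covers. Blood arrays ran on fluidics modules 1, 3 and 1 and marrow arrays on modules 2, 4 and 2 (rats S4, S5 and S6), so module and source of the cells cannot be told apart. P-values weigh a difference against a variance that limma draws from the spread between 3 rats and from that of all probe sets. In the main fit the rats give 2 degrees of freedom and the common variance 3.58. For the bright ribosomal probe sets the p-values thus rest largely on the common variance and less on their own spread between rats. Tables and figures used Python 3.11.15, pandas 2.3.3 and matplotlib 3.10.9.

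Members and lists were chosen with earlier results of these data known. Genes were named by rule. It took members past the threshold (there were 0). It took up to 8 largest differences each way with 1 sign in all 3 rats (6 and 2 qualified). The 2 brightest and 2 dimmest were added, with a set of 23 genes always named and up to 4 per other list. Of the 23, 13 had a probe set among the members. Rpl24 and Rpl37a came in by that rule; Rps3, Rps4y2, Rps24, Rpl4, Rpl19, Rpl26, Rpl35 and Rpl35a were added for their role or after their values were seen. Protein features were planned and not computed, because no protein table was used here.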

Additional observations from a re-analysis of the deposited data

How the results depend on the processing

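The count of ribosomal protein probe sets called was 0 under each of 12 alternative limma fits: 3 scalings, 3 filters, 2 other treatments of the rat, an intensity trend, and leaving out rat S4, S5 or S6. In each, 0 were at an unadjusted p under 0.05, where 708 (without S6) to 1775 (no filter) of all tested probe sets were. The smallest adjusted p among the members in these limma fits ran from 0.519 to 0.925. With no replicate block, that is without the pairing by rat, the count was 0 as well and the median difference stayed at 0.03. The block changed no call among these probe sets. The median difference of the 50 probe sets, 0.03, ran from 0.02 under quantile normalization to 0.04 with arrays shifted to a common median, and with a rat left out from -0.005 (without S4) to 0.055 (without S6). Without shared probe sets, without paralogs, or with the mean of all probe sets of a gene it was 0.03. Filters, the treatment of the rat and the trend leave these medians nearly as they are by construction. Over the other 7 lists 0 genes were called in each limma fit, with a smallest adjusted p from 0.0786 to 0.477. Of their 151 to 161 tested genes, 4 to 13 were at an unadjusted p under 0.05.

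Signs of differences this small are not fixed. For the 21 genes of the naming rule, 12 of 240 alternative values had the opposite sign, in 10 genes. The 240 include filters, other treatments of the rat and the trend, which leave each difference as it is by construction. All 12 came from quantile normalization or from leaving out a rat, so 12 of 240 understates how often signs can change. Rpl22 went to -0.0188 under quantile normalization. With 1 rat left out, Rpl22 ran from -0.025 to 0.04, Rpl39 from -0.01 to 0.075, Rpl7a from -0.07 to 0.01, Rpl7l1 from -0.11 to 0.065, Rps23 from -0.01 to 0.06, Rps27l from -0.26 to 0.19, Rps6 from -0.07 to 0.05 and Rpsa from -0.01 to 0.075. Below the filter and not tested, Rpl30 ran from -0.11 to 0.235 and Rpl3l from -0.265 to 0.135. None of the tested ones was called; the cause was not tested.

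The background moved more, from 175 probe sets called in all. It was 121 with arrays shifted to a common median, 104 with a trimmed mean and 107 with quantile normalization. With no filter 89 were called, with a filter on all 6 arrays 120 and with one on either group 239. Without the replicate block it was 130, with a random block 131 and with the trend 206. Without rats S4, S5 and S6 it was 0, 406 and 44. With 3 rats and no detection calls, the probe sets under 8.18 have no known background.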
